A study of Mus musculus with 9 samples.

Results

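The 9 genes described here encode small regulators of G protein signalling, namely Rgs1, Rgs2, Rgs4, Rgs8, Rgs10, Rgs16, Rgs18, Rgs19 and Rgs20. They are 9 of the 22337 genes in the deposited table and were found by their symbols. Rgs1 was chosen by its measured rise, one of the largest in the rd10 retina, so the differences between rd10 and WT are given for all 9 genes as a description. Where a member is said to be called against WT, this gives its place in the fit of all genes and is not independent evidence of its difference. RNA-seq was made from mouse retinas at P28 in 3 groups of 3 libraries. The WT group was C57 BL/6J mice that received no treatment. The NS-treated group was rd10 mice that were injected with 1 μl of normal saline into both eyes at P14 and at P21, and the MSC-EVs-treated group was rd10 mice that received 1 μl of extracellular vesicles from mesenchymal stem cells of umbilical cord on the same days. The labels place the injection in the vitreous in one field and call it intravenous in another. In rd10 mice the rod phosphodiesterase gene Pde6b is mutated, and the photoreceptors are lost. WT mice came from another supplier and were not injected, so the effects of genotype, source and injection cannot be told apart in a comparison with WT, whereas both rd10 groups were injected littermates. Nothing in the labels states that the 3 libraries of a group came from separate animals, and a p-value then measures only the spread between these libraries, which may be technical.

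RGS proteins end the signal of a receptor that couples to a heterotrimeric G protein: they speed the hydrolysis of GTP by the Gα subunit, which returns it to its inactive form. Rgs1, Rgs2, Rgs4, Rgs8, Rgs16 and Rgs18 belong to the R4 family, Rgs10 to the R12 family, and Rgs19 and Rgs20 to the RZ family. The R4 members and Rgs10 are little more than an RGS domain. Rgs1 and Rgs18 are best known from blood cells, Rgs10 from microglia and Rgs4 and Rgs8 from neurons, while photoreceptors rely on the larger protein Rgs9 to end the light response.

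Of the members, 7 of 9 lie on chromosome 1 in GRCm38 (GENCODE M21), and all are protein coding. Rgs2 (chr1:143999338-144004161), Rgs1 (chr1:144242296-144249242) and Rgs18 (chr1:144752683-144775435) follow each other on the minus strand, with Rgs13 and Rgs21 between them. Rgs8 (chr1:153653025-153700323) and Rgs16 (chr1:153740349-153745468) are neighbours on the plus strand. Rgs4 (chr1:169741477-169747642) and Rgs20 (chr1:4909576-5070285) lie elsewhere on the chromosome, on the minus strand, as do Rgs19 (chr2:181688419-181693977) and Rgs10 (chr7:128373621-128418758). The promoters of Rgs10 and Rgs19 are printed because their log2 fold changes against WT were the largest of the 6 members with a promoter in the table, the choice being made after their values were seen. Both are the 250 bases before a transcription start, from RefSeq on GRCm38.p6, written 5′ to 3′ on the minus strand, with each match to the GC box GGGCGG in capitals.
Rgs10 (chr7:128418173-128418422): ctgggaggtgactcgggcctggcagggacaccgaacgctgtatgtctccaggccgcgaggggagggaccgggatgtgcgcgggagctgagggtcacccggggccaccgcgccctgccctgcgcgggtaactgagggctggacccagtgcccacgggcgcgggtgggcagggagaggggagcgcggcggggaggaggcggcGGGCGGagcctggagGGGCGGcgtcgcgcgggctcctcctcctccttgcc
Rgs19 (chr2:181693978-181694227): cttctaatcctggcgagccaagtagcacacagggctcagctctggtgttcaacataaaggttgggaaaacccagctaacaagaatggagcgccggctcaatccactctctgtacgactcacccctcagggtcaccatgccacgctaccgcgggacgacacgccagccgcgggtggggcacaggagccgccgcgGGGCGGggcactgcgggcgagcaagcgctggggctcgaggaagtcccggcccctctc
The Rgs10 stretch holds 2 such matches on the strand shown and has a GC content of 76.4%, and the Rgs19 stretch holds 1 and has 64.8%, where the median of 32851 mouse promoters was 52.4%. The Rgs10 stretch also lies inside the annotated bounds of Rgs10 itself (chr7:128373621-128418758). The GC box was searched on both strands in windows of the 250 bases before a start, and 32.7% of all promoters held at least 1. Among the 10 starts of the 6 members with a promoter in the table (Rgs2, Rgs4, Rgs8, Rgs10, Rgs16 and Rgs19), the window of Rgs2 held 4 matches, that of Rgs16 held 2, that of Rgs4 held 0 and the 3 windows of Rgs8 held 0. The other motifs searched in the same way were TGANTCA for AP-1, found in 6.75% of all promoters and in 0 of the 10 member windows, GAGGAA for PU.1 (23.3%), TGACG for the cyclic AMP response element (17.8%), CACGTG for the E-box (6.02%) and TATAAA for the TATA box (12.4%). The PU.1 letters were present in windows of Rgs4, Rgs8, Rgs16 and Rgs19 and not in those of Rgs2 and Rgs10. The TATA box was present once among the members, in Rgs4. A match is a description of the letters in a window.

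The estimated counts summed to between 19491717 and 62532343 per library, with MSC-EVs replicate 3 the deepest, and levels are given as CPM, that is, counts scaled to library size with edgeR's TMM factors. The tissue matched its label, since the rod transducin gene Gnat1 was at 14800 to 16300 CPM in WT. Gnat1 was at 2930 to 4000 CPM in NS-treated and 2790 to 4350 CPM in MSC-EVs-treated rd10. Of 12 listed rod genes, 11 were called lower in NS-treated rd10 against WT, where 3.56% of all genes tested were. The 18 listed microglia and macrophage genes, C1qc among them, summed to 89.9 to 97.8 CPM in WT, 558 to 688 CPM in NS-treated and 453 to 795 CPM in MSC-EVs-treated rd10, none of the 18 being at 0 in every library. The libraries of the MSC-EVs group differed in Y-linked genes such as Ddx3y and Kdm5d: 4379 counts in replicate 1, 4421 in replicate 2 and 23 in replicate 3, against 7 to 11 in each of the other 6 libraries, and the labels give no sex. Differences between the rd10 groups are therefore also given with replicate 3 as the only MSC-EVs library. In whole retinas, fewer cells of a type and less RNA per cell cannot be told apart.

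Between WT and NS-treated rd10, Rgs1 and Rgs10 were higher and Rgs20 was lower, and the remaining members differed by less than 2-fold or were not measurable. A gene was called where the adjusted p of edgeR's quasi-likelihood test was under 0.05 and the absolute log2 fold change was at least 1. Of the 9 members, 8 had enough counts to be tested and Rgs18 had not. Of these 8, 2 were called higher (Rgs1 and Rgs10), where 9.16% of the 14644 genes tested were, and 1 was called lower (Rgs20), where 3.56% were. With no limit on the fold change, 5 members were higher (Rgs1, Rgs2, Rgs4, Rgs10 and Rgs19) and 1 was lower, against 31.2% and 30.1% of all genes. All NS libraries lay above all WT libraries in the same 5 members and below them in 2, Rgs16 and Rgs20, against 33.7% and 33.2% of all genes. The median log2 fold change of the tested members was 0.34, and that of all genes tested 0.005. Since the members were chosen with this comparison known, nothing is read from these counts, and Rgs1, with no WT counts, passed the filter on low counts only through the rd10 libraries.

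**Figure D1:**
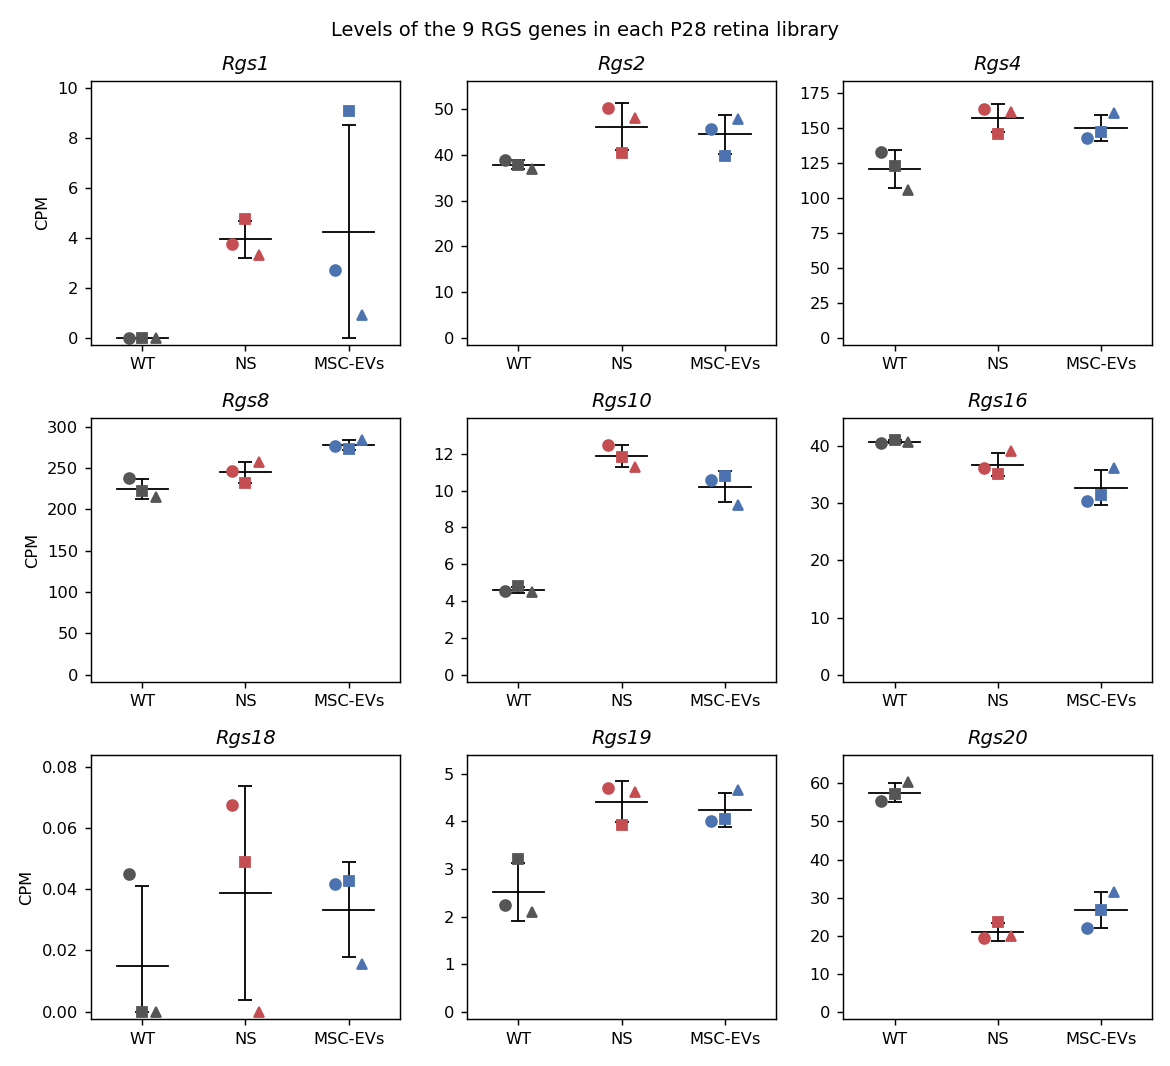
CPM of each of the 9 RGS genes in every library (circle, replicate 1; square, replicate 2; triangle, replicate 3), with the group mean and SD (n = 3; lower ends of the bars cut at 0). Rgs1 is at 0 in WT, Rgs10 and Rgs19 are higher and Rgs20 lower in all 6 rd10 libraries, and Rgs18 stays below 0.08 CPM throughout.

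Rgs1, which dampens chemokine receptor signals in lymphocytes and other leukocytes, had 0 counts in each of the 3 WT libraries. In NS-treated rd10 it had 111, 97 and 72 counts, or 3.75, 4.75 and 3.30 CPM. In MSC-EVs-treated rd10 it had 65, 212 and 57 counts, or 2.72, 9.05 and 0.886 CPM. All 6 rd10 libraries lay above WT, and the MSC-EVs libraries spread 10.2-fold against 1.44-fold among the NS libraries. A count of 0 allows up to 3 counts per library, which is 0.14 CPM in WT, which puts Rgs1 at least 28.2-fold above WT in the NS group and at least 30.2-fold above it in the MSC-EVs group. Taken library by library, the bound ran from 23.6-fold to 34.0-fold in the NS group and from 6.34-fold in MSC-EVs replicate 3 to 64.8-fold in replicate 2. These limits cover counting error only. None of the 50-base stretches of its transcripts was shared with another gene, and no other gene overlapped it.

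The spread of Rgs1 within the MSC-EVs group went with that of the microglia and macrophage genes, whose sum was 667 CPM in replicate 1, 795 in replicate 2 and 453 in replicate 3. Of those 18 genes, 16 were called higher than WT in the NS group and 18 in the MSC-EVs group, where 9.16% and 9.0% of all genes tested were. The median log2 fold changes of the 18 were 3.31 and 3.38. In the NS group their mean sum was 6.65-fold that of WT. The sums of these genes there were 688, 635 and 558 CPM in replicates 1, 2 and 3. Rgs1 did not follow that order, being highest in replicate 2 (4.75 CPM). Per 1000 CPM of these genes, Rgs1 stood at 0 CPM in each WT library, at 5.45, 7.49 and 5.91 in the NS libraries and at 4.07, 11.4 and 1.96 in the MSC-EVs libraries. The WT value is fixed at 0 by the counts, and among the rd10 libraries the spread was again wider in the MSC-EVs group. Monocyte and neutrophil genes, led by Ly6c2 and Plac8, summed to 0 to 0.224 CPM in WT, 4.39 to 13.9 in NS-treated and 2.49 to 14.2 in MSC-EVs-treated rd10, where 5 of the 10 (Ly6g, Elane, Ngp, Mpo and Camp) had at most 3 counts in every library and Elane had 0. Lymphocyte genes, led by Cd8a and Cd4, summed to 1.16 to 1.75, 4.21 to 5.71 and 2.33 to 7.04 CPM in the same order. The part of these cells in the Rgs1 level was not tested.

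**Figure D2:**
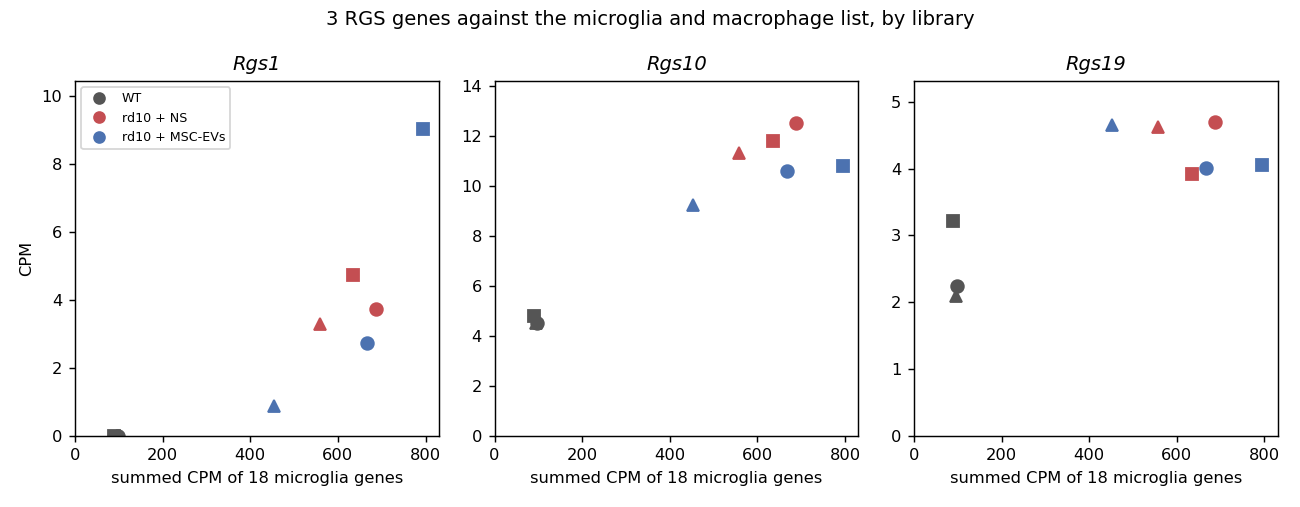
CPM of Rgs1, Rgs10 and Rgs19 (vertical axes) against the summed CPM of 18 microglia and macrophage genes (horizontal axes), 1 point per library, with shapes for replicates as in the plot of levels by library. WT libraries lie at 89.9 to 97.8 CPM of the list and rd10 libraries at 453 to 795, and within rd10 Rgs1 is highest (9.05 CPM) and lowest (0.886 CPM) in the libraries where the list is.

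Over all 9 libraries, the 5 genes whose log2 CPM followed Rgs1 most closely among 14900 genes compared were Spsb1, Cxcl10, Olfml3, Psmb9 and Clic1, with Pearson's r between 0.994 and 0.997. Over the 6 rd10 libraries alone, which are among the 9 that chose the genes, r was 0.992 for Spsb1, 0.987 for Clic1, 0.985 for Olfml3, 0.968 for Cxcl10 and 0.952 for Psmb9. These values describe 9 and 6 libraries, which share depth and cell makeup between genes. Cxcl10, a chemokine, was at 0.359, 0.313 and 0.450 CPM in WT, 7.23, 9.90 and 5.17 in NS-treated and 6.56, 16.7 and 2.72 in MSC-EVs-treated rd10. Spsb1, an adaptor of ubiquitin ligases, was at 4.04, 3.09 and 3.30 CPM in WT, 31.5, 34.9 and 30.2 in NS-treated and 22.9, 49.3 and 13.1 in MSC-EVs-treated rd10. In both, as in Rgs1, replicate 2 was the highest and replicate 3 the lowest of the MSC-EVs libraries, a likeness for which the genes were picked.

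**Figure D3:**
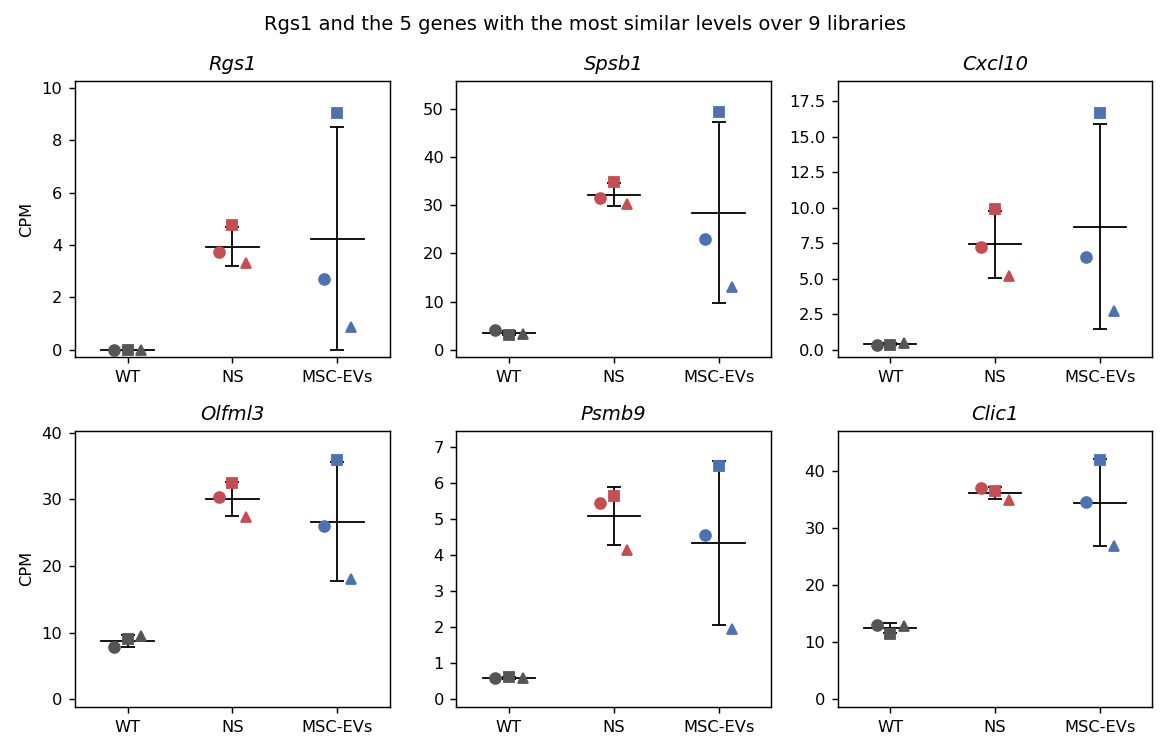
CPM of Rgs1 and of the 5 genes with the highest correlation with it, by group and library (shapes mark replicates 1, 2 and 3 as circle, square and triangle; lines and bars, mean and SD, n = 3, lower ends cut at 0). Each gene is low in WT and spreads most in the MSC-EVs group, from 0.886 to 9.05 CPM for Rgs1.

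Rgs2, which acts mainly on Gαq, was at 38.8, 37.9 and 36.9 CPM in WT, 50.2, 40.5 and 48.0 in NS-treated and 45.8, 39.8 and 47.9 in MSC-EVs-treated rd10. Every rd10 library lay above every WT library, by 1.05-fold to 1.32-fold of the WT mean. The log2 fold change against WT was 0.29 (standard error, SE, 0.08) in NS-treated and 0.24 (0.08) in MSC-EVs-treated rd10.

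Rgs4, an abundant neuronal regulator of Gαi and Gαq, was at 133, 123 and 106 CPM in WT, 164, 146 and 162 in NS-treated and 143, 147 and 161 in MSC-EVs-treated rd10. The groups did not overlap between WT and rd10, and the 2 rd10 groups did. Its log2 fold change against WT was 0.38 (SE 0.08) in NS-treated and 0.33 (0.08) in MSC-EVs-treated rd10.

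Rgs8, another neuronal member, was at 238, 222 and 215 CPM in WT, 246, 232 and 257 in NS-treated and 277, 273 and 284 in MSC-EVs-treated rd10. WT and NS libraries overlapped, and the 3 MSC-EVs libraries lay above all the others. Its log2 fold change was 0.12 (SE 0.06) in NS-treated and 0.31 (0.05) in MSC-EVs-treated rd10, each against WT. Of the marker genes of retinal neurons other than rods, 0 of 9 cone, 0 of 9 bipolar, 0 of 9 amacrine, 0 of 10 ganglion and 0 of 4 horizontal cell genes were called in NS-treated rd10 against WT, with median log2 fold changes of 0.01, 0.26, 0.27, 0.29 and 0.42. Of all genes tested, 9.16% were called higher and 3.56% lower there, and 9.0% and 3.20% in MSC-EVs-treated rd10 against WT. In MSC-EVs-treated rd10 against WT, 1 cone gene was called lower (Arr3) and 1 horizontal cell gene higher (Onecut2), with medians of -0.33, 0.07, 0.22, 0.11 and 0.43 in the same order. Between the rd10 groups 0 were called, with medians of -0.32, -0.04, -0.11, -0.20 and 0.08. Their part in the level of Rgs8 was not tested.

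Rgs16, an inducible member that acts on Gαi and Gαq, was almost the same in the 3 WT libraries, at 40.6, 41.0 and 40.8 CPM. It was at 36.1, 35.1 and 39.1 CPM in NS-treated and 30.4, 31.5 and 36.2 in MSC-EVs-treated rd10. All rd10 libraries lay below WT, by a log2 fold change of -0.15 (SE 0.07) in the NS group and -0.31 (0.08) in the MSC-EVs group. On the FPKM scale, the NS group was no longer below WT, with a difference of 0.02 on log2(FPKM + 1). The FPKM values carry no TMM factors, which were 0.920 to 0.932 in WT and 1.037 to 1.052 in the NS libraries. The 2 scales therefore differ between these groups. An antisense gene, Gm28513, shares 236 of its exonic bases (10.1%), and 8.34% of its 50-base stretches recur in other genes. Whether the libraries kept the strand is not given in the sources used here, so reads of the pair cannot be told apart.

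Rgs18, known from platelets and their precursors, was at or near the limit of detection. It had 1, 0 and 0 counts in WT, 2, 1 and 0 in NS-treated and 1, 1 and 1 in MSC-EVs-treated rd10. No library passed the floor of 3 counts, so no fold is given, and a difference was not detectable at this depth. Of 7 platelet genes, Ppbp and Gp9 had at most 3 counts in every library, and the sum, led by Gp1ba and Itga2b, was 2.74 to 3.65 CPM in WT, 4.87 to 6.42 in NS-treated and 4.09 to 6.83 in MSC-EVs-treated rd10.

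Among the genes next to Rgs1, Rgs21 had 0 counts in all 9 libraries. Rgs13, which lies between Rgs2 and Rgs1 and is known from mast cells and B cells, was at 1.48, 0.985 and 1.20 CPM in WT, 0.845, 0.392 and 0.595 in NS-treated and 0.502, 0.469 and 0.731 in MSC-EVs-treated rd10. It was called lower in MSC-EVs-treated rd10 than in WT (log2 fold change -1.04, SE 0.33, adjusted p = 0.0205 in edgeR) and lay just short of the fold limit in NS-treated rd10 (-0.96, SE 0.35, adjusted p = 0.0317 in edgeR). The 5 RGS genes of this stretch thus held Rgs1 and Rgs2 above WT, Rgs13 below it and Rgs18 and Rgs21 at or under the floor.

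Rgs10, the R12 member and a regulator of Gαi that microglia express strongly, was at 4.53, 4.79 and 4.50 CPM in WT. It was at 12.5, 11.8 and 11.3 CPM in NS-treated and 10.6, 10.8 and 9.23 in MSC-EVs-treated rd10. All 6 rd10 libraries lay at least 2.0-fold above the WT mean, and every MSC-EVs library lay below every NS library. Its log2 fold change against WT was 1.36 (SE 0.12) in NS-treated and 1.15 (0.13) in MSC-EVs-treated rd10. Per 1000 CPM of the microglia and macrophage genes, Rgs10 stood at 46.3 to 53.3 CPM in WT, 18.2 to 20.4 in NS-treated and 13.5 to 20.4 in MSC-EVs-treated rd10. Rgs10 was thus higher in rd10 by a smaller factor than the sum of the microglia genes. Their part in its level was not tested.

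Rgs19, an RZ member that acts on Gαi, was at 2.24, 3.22 and 2.10 CPM in WT, 4.70, 3.92 and 4.62 in NS-treated and 4.01, 4.05 and 4.66 in MSC-EVs-treated rd10. WT replicate 2 was the nearest to the rd10 libraries, which all lay above it. The log2 fold change against WT was 0.80 (SE 0.21) in NS-treated and 0.76 (0.21) in MSC-EVs-treated rd10, and it was 1.02 in NS-treated rd10 without WT replicate 2, which takes the gene past the fold limit. Per 1000 CPM of the microglia and macrophage genes, it stood at 22.1 to 35.8 CPM in WT, 6.17 to 8.29 in NS-treated and 5.10 to 10.3 in MSC-EVs-treated rd10.

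Rgs20, the other RZ member, prefers Gαz and was the only member called lower in rd10. It was at 55.3, 57.1 and 60.3 CPM in WT, 19.3, 23.6 and 19.9 in NS-treated and 22, 26.8 and 31.5 in MSC-EVs-treated rd10. All rd10 libraries lay at 0.335 to 0.547 of the WT mean, with the highest value in MSC-EVs replicate 3. Its log2 fold change against WT was -1.47 (SE 0.08) in NS-treated and -1.09 (0.12) in MSC-EVs-treated rd10. The latter was -0.96 without MSC-EVs replicate 1, -0.80 on log2(FPKM + 1) and -0.83 on log2(FPKM + 0.1), all short of the fold limit. The rod genes were lower in the same libraries, with a median log2 fold change of -1.69 in NS-treated and -1.72 in MSC-EVs-treated rd10, and their part in the level of Rgs20 was not tested. Atp6v1h on the other strand shares 127 of its exonic bases, and 4.18% of its 50-base stretches recur in other genes. Gnaz, which encodes the Gαz subunit and was chosen after its values were seen, was at a mean of 113 CPM in WT, 58.0 in NS-treated and 56.9 in MSC-EVs-treated rd10, with log2 fold changes against WT of -0.96 and -0.98 (SE 0.06 in both; edgeR adjusted p = 8.89e-08 and 1.58e-06).

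In MSC-EVs-treated rd10 against WT, Rgs10 was called higher and Rgs20 lower among the 8 members tested, against 9.0% and 3.20% of 14623 genes. Rgs1 was not called there. It was called with DESeq2, with both limma fits, with all 9 libraries in 1 fit, with the replicate block and without MSC-EVs replicate 2 or 3, and nothing is read from a call of a gene that passed the filter only through its rd10 libraries. With no limit on the fold change, 5 members were higher (Rgs2, Rgs4, Rgs8, Rgs10 and Rgs19) and 2 lower (Rgs16 and Rgs20), against 28.3% and 27.2% of all genes. The libraries did not overlap in 6 members that were higher and 2 that were lower, against 31.9% and 33.3%. This comparison shares the WT libraries with that of NS-treated rd10 and WT.

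The comparison of MSC-EVs-treated with NS-treated rd10 asks whether the vesicles altered these regulators, and it was not used to choose the members, although it shares the NS libraries with the comparison that was. Of the 8 members tested, 0 were called by edgeR in either direction, where 0.0542% of 14765 genes were called higher and 0.00677% lower. With no limit on the fold change the count was again 0, against 0.914% and 0.251% of all genes, and it was 0 with DESeq2 too, which gave no adjusted p for Rgs1 and Rgs19. At an unadjusted p under 0.05, 2 of the 8 members differed (Rgs8 and Rgs20), against 20.2% of all genes. The median log2 fold change of the 8 members was -0.05, and that of all genes -0.002.

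Rgs8 was higher in all 3 MSC-EVs libraries than in the NS libraries, by a log2 fold change of 0.19 (SE 0.06, adjusted p = 0.138 in edgeR). Rgs10 was lower in all 3 MSC-EVs libraries, by -0.22 (SE 0.12, adjusted p = 0.323 in edgeR). They were 1 member of 8 with libraries not overlapping in each direction, against 12.7% and 13.5% of all genes, and both missed the threshold after adjustment in edgeR. With limma, Rgs8 stood at 0.29 with an adjusted p of 0.0508 on log2(FPKM + 1) and of 0.0489 on log2(FPKM + 0.1), the latter past 0.05 but short of the fold limit. The FPKM of Rgs8 was scaled by a shorter length in the MSC-EVs than in the NS libraries, so the limma value mixes counts with length. Rgs20 overlapped between the groups, with a log2 fold change of 0.37 (SE 0.14, adjusted p = 0.187 in edgeR). For Rgs2, Rgs4, Rgs16 and Rgs19 the log2 fold changes were -0.05 (0.10), -0.06 (0.07), -0.16 (0.09) and -0.05 (0.17), with adjusted p-values in edgeR from 0.379 to 0.914.

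Rgs1 had a log2 fold change of 0.06 between the rd10 groups, with the largest standard error of the members, 0.83 (edgeR adjusted p = 0.982). MSC-EVs replicate 2 stood at 2.30 times the NS mean, replicate 1 at 0.691 and replicate 3 at 0.225, so the 3 libraries did not move one way. Without replicate 2 the log2 fold change was -1.21 (SE 0.45, adjusted p = 0.166 in edgeR). With replicate 3 as the only MSC-EVs library, the one with next to no Y-linked counts, it was -2.13 (SE 0.35, adjusted p = 0.0208 in edgeR), with that lone library assumed to vary like the NS ones. This last comparison was chosen after seeing the data, and Rgs1 was the 1 member called in it, where 85 genes in all were called against 9 with all 6 libraries. In the same comparison the log2 fold change was 0.61 for Rgs20, 0.23 for Rgs8, -0.35 for Rgs10 and -0.01 for Rgs16, with adjusted p-values in edgeR of 0.0649, 0.252, 0.285 and 0.970. Adjusting for the Y-linked level of each library gave -2.14 (SE 0.69, adjusted p = 0.194 in edgeR). The NS libraries also had next to no Y-linked counts, so this value too rests mainly on MSC-EVs replicate 3 and is not a separate result. Since replicate 3 is also the deepest library and the lowest in microglia genes, these features cannot be told apart.

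**Figure D4:**
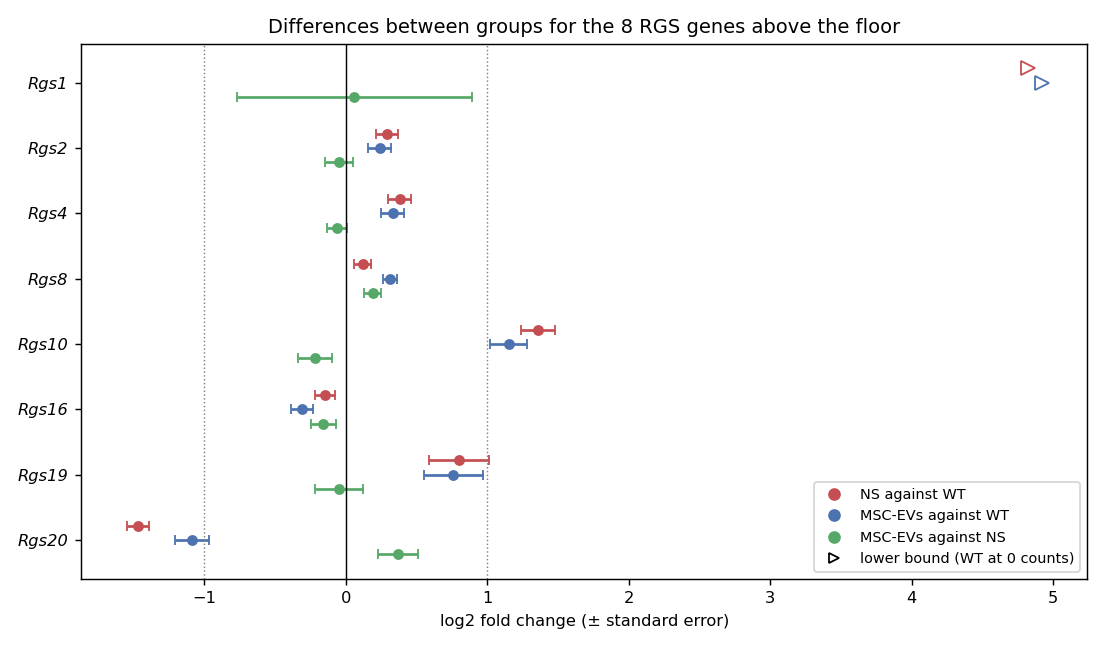
Log2 fold changes of the 8 members above the floor with their standard errors from edgeR (n = 3 libraries per group), for both rd10 groups against WT and for the 2 rd10 groups against each other. Dotted lines mark a log2 fold change of -1 and 1, open triangles are lower bounds for Rgs1 (4.82 and 4.92), and only Rgs1, Rgs10 and Rgs20 lie past the dotted lines against WT.

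Levels of different genes can be compared only per length, for which the deposited FPKM values were used. In WT the order of mean FPKM was Rgs8 (40.9), Rgs4 (37.9), Rgs20 (32.2), Rgs16 (16.1), Rgs2 (13.5), Rgs10 (4.96), Rgs19 (1.75), Rgs18 (0.00667) and Rgs1 (0). The libraries of Rgs8 and Rgs4, of Rgs4 and Rgs20, and of Rgs18 and Rgs1 overlapped, and the other neighbours in this order lay apart. In NS-treated rd10 the order was Rgs4 (56.0), Rgs8 (49.4), Rgs2 (18.3), Rgs16 (16.4), Rgs20 (14.7), Rgs10 (14.4), Rgs19 (3.27), Rgs1 (2.60) and Rgs18 (0.0200). Here the libraries of Rgs2 and Rgs16, Rgs16 and Rgs20, Rgs20 and Rgs10, and Rgs19 and Rgs1 overlapped. Rgs20 therefore moved from well above Rgs10 in WT to a level not separated from it. In MSC-EVs-treated rd10 Rgs8 (60.4) and Rgs4 (52.9) were again the highest and lay apart, followed by Rgs20 (18.2), Rgs2 (17.4), Rgs16 (14.5) and Rgs10 (12.5), each overlapping the next, and by Rgs19 (3.23) and Rgs1 (2.76), which overlapped, and Rgs18 (0.0167). The FPKM of Rgs8 was scaled by 4683 to 4818 bases in the MSC-EVs libraries and by 5083 to 5381 in the NS libraries. Its place relative to Rgs4 therefore mixes counts with the length used.

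**Figure D5:**
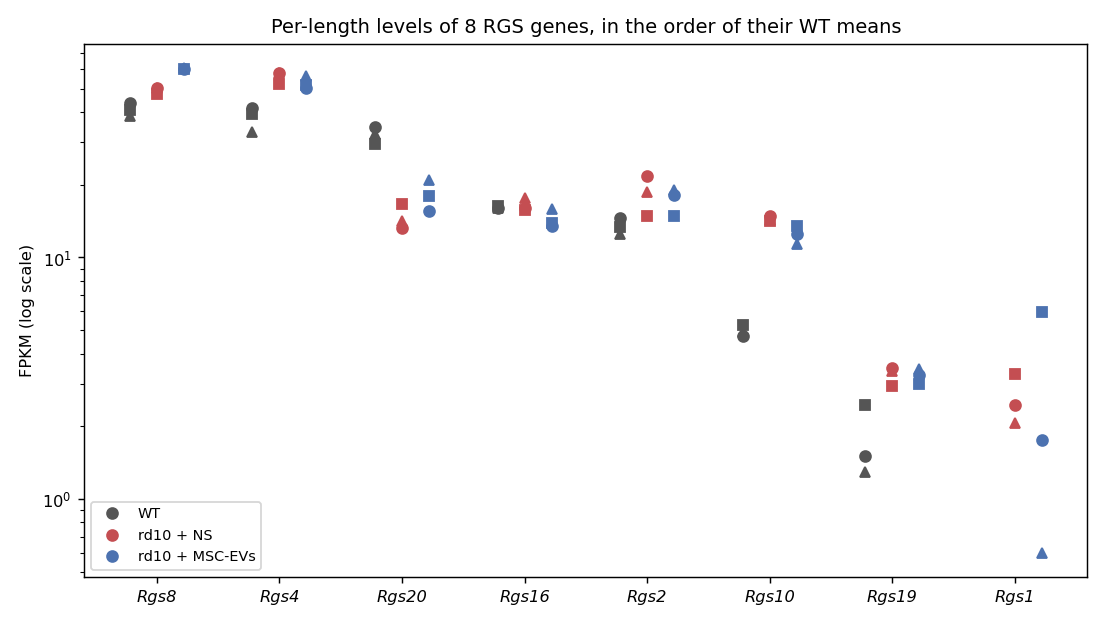
FPKM (log scale) of 8 RGS genes in each library, ordered by the WT mean and coloured by group; values of 0 (Rgs1 in WT) cannot be drawn and Rgs18 is left out. Rgs8, Rgs4 and Rgs20 lead in WT with means of 40.9, 37.9 and 32.2, and Rgs20 drops to 14.7 in NS-treated rd10, among Rgs2, Rgs16 and Rgs10.

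A list of 12 other RGS genes, drawn up by family, was read beside the members. Of the 10 tested, 1 was called lower and 0 higher in NS-treated rd10 against WT, where 3.56% and 9.16% of all genes tested were. The median log2 fold change of the 10 was 0.29, and that of all genes tested 0.005. The gene called was Rgs9, which ends the light response of photoreceptors, at 613, 489 and 477 CPM in WT, 303, 225 and 192 in NS-treated and 331, 384 and 389 in MSC-EVs-treated rd10. It dropped by 1.13 on a log2 scale (SE 0.20, adjusted p = 0.00434 in edgeR). Its MSC-EVs libraries all lay above its NS libraries, by a log2 fold change of 0.62 (0.17) that did not pass the threshold (edgeR adjusted p = 0.122). Rgs9bp, the membrane anchor of Rgs9, fell by 2.04 (SE 0.10, adjusted p = 2.67e-08 in edgeR), the 1 call among 5 partners of the R7 family, whose median was 0.40. In MSC-EVs-treated rd10 against WT, Rgs17, a close relative of Rgs20, was called higher (log2 fold change 1.06, SE 0.10, adjusted p = 1.82e-05 in edgeR) and Rgs13 lower. Of all genes tested there, 9.0% were called higher and 3.20% lower. Rgs20 and Rgs17 thus lay on opposite sides of WT. Between the rd10 groups, 0 of the 10 other RGS genes and 0 of the 5 partners were called. Of all genes, 0.0542% were called higher there and 0.00677% lower.

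A list of 17 receptors that signal through Gαi in myeloid cells, the kind of input Rgs1 and Rgs10 act on, was read in the same way. In NS-treated rd10 against WT, 10 were tested and 9 were called higher, against 9.16% of all genes tested, with a median log2 fold change of 1.58. Cx3cr1 and P2ry12 among them also belong to the microglia list. C3ar1, a receptor for complement C3a, rose by 4.35 on a log2 scale (SE 0.30, adjusted p = 2.18e-07 in edgeR). It had 7, 13 and 9 counts in the WT libraries, so that it passed the filter on low counts only through rd10. Ccr2 and C5ar1 had at most 1 count in each WT library and stood at means of 1.26 and 1.24 CPM in NS-treated rd10, so they passed the filter on low counts only through rd10 libraries and had to differ. In MSC-EVs-treated rd10 against WT, 13 of 14 tested were called higher, against 9.0% of all genes tested, and between the rd10 groups 0 of 14 were, with a median of 0.46. Of those tested in the former, Ccr1, Ccr2, C5ar1, Gpr183, Cnr2 and Hcar2 had at most 2 counts in each WT library and passed the filter only through rd10 libraries, so neither count is read as support. In MSC-EVs-treated rd10 the mean levels were 2.53 CPM for Ccr2, 1.71 for Ccr1, 0.569 for Hcar2 and 12.6 for C3ar1.

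Among the G proteins that RGS members act on, 1 of 8 tested Gαi and Gαq genes was called in NS-treated rd10 against WT. Of all genes tested, 9.16% were called higher and 3.56% lower there, and 9.0% and 3.20% in MSC-EVs-treated rd10 against WT. As the lists below are short, nothing is read from their counts of calls. The median log2 fold change of the 8 was 0.32, and that of all genes tested 0.005. The gene called was Gna14, a Gαq relative, which rose by 2.43 (SE 0.17, adjusted p = 1.60e-07 in edgeR) from a mean of 3.0 to 16.3 CPM. Gna15 was called as well in MSC-EVs-treated rd10 (2.52, SE 0.49, adjusted p = 0.00164 in edgeR), with 6, 2 and 2 counts in the WT libraries, so that it passed the filter only through rd10. Of 6 other Gα genes tested, rod transducin Gnat1 was the 1 called, with a log2 fold change of -2.13 (SE 0.11, adjusted p = 2.15e-08 in edgeR). Of 16 effectors, Plcb2 (log2 fold change 2.54, SE 0.39) and Adcy7 (1.16, 0.15) were called higher and Adcy6 (-1.09, 0.10) lower, with edgeR adjusted p-values of 1.34e-04, 3.93e-05 and 5.52e-06. Plcb2 had 13, 4 and 4 counts in the WT libraries, so that it too passed the filter only through rd10. Of 10 receptor kinases and arrestins, the rod genes Grk1 (log2 fold change -1.82, SE 0.08) and Sag (-1.16, 0.09) were called lower, and the cone arrestin Arr3 joined them in MSC-EVs-treated rd10 against WT (-1.33, SE 0.08, adjusted p = 1.33e-06 in edgeR). None of these lists had a gene called between the rd10 groups by edgeR. With no limit on the fold change, 1 of the 16 effectors was higher there, where 0.914% of all genes were.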

How the data were processed

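RNA-seq of mouse retina at P28 was measured in the 3 groups above, taken from the labels, with 3 libraries in each. For 22337 genes and 9 libraries, the authors deposited estimated counts, made from the reads and not scaled to depth, together with FPKM. The submitters' processing notes name fastp, Bowtie2, HISAT2, StringTie 1.3.1 and RSEM, without their roles; the genome build and annotation are not given in the sources used here. The estimated counts, 9.16% to 11.7% of which carried decimals in a library, were rounded. The 2 groups of a comparison (6 libraries) were fitted in R 4.3.3 by the quasi-likelihood method of edgeR 4.0.16, with filterByExpr, TMM and robust estimation. P-values were adjusted by Benjamini-Hochberg over all genes tested. Calls required an adjusted p below 0.05 with at least a 2-fold difference (a log2 fold change of 1). CPM was scaled by TMM over the 9 libraries. The deposited FPKM values, which the authors scaled to length and depth, served for comparing genes and for limma 3.58.1. No TMM factors were applied to them, so differences from WT in FPKM are not on the scale of those in CPM. The fit was tested on simulated data.

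The members and gene lists were chosen with earlier results of these data known. The text names all 9 members, up to 4 called genes of each pathway list with the largest absolute log2 fold change in each direction and comparison, and the 5 genes most correlated with Rgs1 (log2 CPM, prior count 2, genes passing filterByExpr over 9 libraries). Also named, outside this rule, were Gnaz, chosen after its values were seen, and Rgs13 and Rgs21, which lie next to Rgs1. Some receptors were named for low counts in WT or for being in the microglia list. Marker lists are given by sum, range and calls. Positions came from GENCODE M21, which holds 22232 of the 22337 identifiers in the file used, and promoters from RefSeq, which matched 6 of the 9 members; Rgs1, Rgs18 and Rgs20 had no entry. Alternatives were other scalings, DESeq2 1.42.0, limma on log2(FPKM + 1) and log2(FPKM + 0.1), no filter, a minimum of 10 counts per library, 1 fit of all 9 libraries, a replicate block, Y-linked expression as a covariate, no limit on the fold change, each library left out, and, chosen after seeing the data, the rd10 libraries without Y-linked counts alone. Values of some listed genes are not reported here.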

Additional observations from a re-analysis of the deposited data

How the results depend on the processing

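The number of members called in NS-treated rd10 against WT was 3, and it was 6 with no limit on the fold change, 2 with at least 10 counts in every library, where Rgs1 was not tested, and 3 to 4 when each library was left out. In MSC-EVs-treated rd10 against WT it was 2, and it was 7 with no limit on the fold change and 1 to 3 when each library was left out, the 1 being without MSC-EVs replicate 1. Between the rd10 groups it was 0 under all other alternatives and 1 (Rgs1) with only the libraries without Y-linked counts, an alternative chosen after seeing the data. Over all genes, the count between the rd10 groups was less stable, at 9 in edgeR, 25 with DESeq2, 38 with all 9 libraries in 1 fit, 29 with Y-linked expression as a covariate, 85 with only the libraries without Y-linked counts, 172 with no limit on the fold change and 0 to 82 when each library was left out.

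Of the members' log2 fold changes under the alternatives, 125 of 127 kept their sign in NS-treated rd10 against WT, the exceptions being Rgs16 with both limma fits, and 127 of 127 in MSC-EVs-treated rd10 against WT. Between the rd10 groups 127 of 144 did. The rest were small values of Rgs2, Rgs4 and Rgs19, and Rgs1. With Y-linked expression as a covariate the values were 0.10 for Rgs19, -2.14 for Rgs1, 0.08 for Rgs2 and 0.05 for Rgs4, and with the libraries without Y-linked counts alone they were 0.09, -2.13, 0.06 and 0.04. Both sets of values rest mainly on MSC-EVs replicate 3 and are not separate results. With limma, Rgs1 was -0.19 on log2(FPKM + 1) and -0.42 on log2(FPKM + 0.1). With each library left out, Rgs1 ranged from -1.21 to 0.58, Rgs19 from -0.13 to 0.00 and Rgs2 from -0.13 to 0.03.

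Whether the replicate numbers pair the libraries of the rd10 groups was not settled. Correlations of same-numbered deviations from the group means were 0.093, 0.174 and 0.272 between NS and MSC-EVs. Those of other numbers ran from -0.189 to 0.003, and each MSC-EVs library correlated best with the NS library of its own number. In the comparisons with WT, the same-numbered correlations were -0.059 to 0.076. With a replicate block, the members called were 3 in NS-treated rd10 against WT, 0 between the rd10 groups and 3 in MSC-EVs-treated rd10 against WT, the genes called between the rd10 groups were 21, and Rgs1 was -0.39. Depth limited Rgs18, and Rgs1 in WT.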

Other observations

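The count, FPKM and library total of a gene together imply the length that the FPKM value was scaled by, and for several members this length differed between libraries. For Rgs4 it was 2940 or 2941 bases in all 9 libraries and for Rgs16 2338 to 2340, which are the lengths of their longest annotated transcripts (2941 and 2339). For Rgs8, with 10 annotated transcripts of 522 to 8474 bases, it was 4683 to 4818 in the MSC-EVs libraries, 5083 to 5381 in the NS libraries and 5071 to 5124 in WT, so that the MSC-EVs libraries lay apart from the rest. For Rgs20, with 7 transcripts, it was 1477, 1802 and 1713 in WT, 1480 to 1507 in NS-treated and 1469 to 1545 in MSC-EVs-treated rd10. For Rgs1 it was 1517 to 1675 over the 6 rd10 libraries. A difference in FPKM for Rgs8 or Rgs20 therefore mixes counts with the length used, which was not tested further. Per annotated transcripts, Rgs1 has 9, of which 2 are coding.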
